A study of Mus musculus with 16 samples.

Results

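The genes for the Wnt signalling proteins that act outside the cell and at its surface were examined in RNA-seq libraries of mouse cortex and cerebellum. Members were taken by gene name: every entry of the deposited gene list named as a Wnt ligand, a Frizzled (Fzd) receptor, a secreted frizzled-related protein (Sfrp) or a Dickkopf protein (Dkk), however few its counts. The list held 38 such entries among 37583, of which 19 were ligands, 11 receptor entries and 8 inhibitors. *Fzd10* is listed as 2 entries, a coding gene and a pseudogene on the same strand that lies wholly within it, so its counts are uncertain.

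Snap-frozen cortex and cerebellum were taken for RNA-seq from 4 wild-type mice and from 4 carrying the *Slc39a8* A391T (A393T) mutation, all on the C57BL/6J strain, with 1 library per region and mouse and 16 libraries in all. *Slc39a8* encodes a metal ion transporter, and the mutation changes 1 amino acid. The wild-type mice were males of 12 weeks, and both regions came from the same animals. The sex and age of the A391T mice are not given in the sources used here. *Xist*, which is expressed from the inactive X chromosome of females, had 0 to 5 counts in each of the 16 libraries, A391T included. Frontal cortex and cerebellum were taken by blunt dissection from brains that had not been perfused, so a library holds every cell type of the block, vessels and blood included, and in such bulk tissue fewer cells of a type and less RNA per cell cannot be told apart. *Slc39a8* counts ran from 75 to 171 per library, which says nothing of the mutation itself. The mice of each genotype are called 1 to 4 here, in the order of their numbers in the labels, and values for single libraries are given in that order throughout.

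Wnt proteins are secreted lipid-modified glycoproteins that bind Frizzled receptors. With the co-receptors *Lrp5* and *Lrp6* the bound receptor stabilises β-catenin, which then acts with TCF and LEF factors on target genes; with other partners Wnt proteins steer cell polarity and movement without β-catenin. Sfrp proteins carry a domain like the Wnt-binding domain of Frizzled and bind the ligands, whereas *Dkk1* and *Dkk2* bind the Lrp co-receptors. In the brain the pathway is known for patterning the midbrain and hindbrain, for vessel growth and the blood-brain barrier, and for synapse formation.

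Counts on genes ran from 20813432 to 30497206 per library. The deposited RPKM table names 8 of its 16 columns differently from the count files: the libraries of wild-type mice 1 and 2 there carry the names of A391T mice 3 and 4, and the reverse, in both regions. The names of the count files are used below, and the region of each library is the same under both. A list of 9 cortex neuron genes summed to at least 2532 TPM (transcript abundance per length, scaled to one total in every library) in each cortex library and at most 1023 TPM in each cerebellum library, and 12 cerebellum neuron genes to at most 581.2 and at least 5525 TPM. All 12 choroid plexus genes were in the files, and their sum ran from 254.3 to 316 TPM over the cortex libraries, from 190.3 to 9325 TPM in wild-type cerebellum and from 216.6 to 6685 TPM in A391T cerebellum. *Enpp2*, which other brain cells also express, made up most of the cortex sum, with 232.4 to 296.9 TPM. *Ttr* had 215 counts in the cerebellum libraries of wild-type mouse 3 and A391T mouse 4, against 22573 to 65188 in the other 6. *Cldn2* and *Otx2* were at 0 in at least 1 cortex library, and *Sostdc1* in at least 1 cerebellum library. The 12 meningeal genes summed to 1486 to 2033 TPM in cortex against 2042 to 3374 TPM in cerebellum. The 10 striatal genes summed to 440 TPM in the cortex of A391T mouse 3 against at least 1065 TPM in the other cortex libraries. Pooled over genotypes, cortex and cerebellum had 286.4 to 440.2 and 360 to 593.5 TPM of 5 blood genes, 416.3 to 588.3 and 389.3 to 488.5 of 10 endothelial genes, and 1921 to 2268 and 3271 to 3760 of 10 astrocyte genes. The ranges were 4157 to 4886 and 3916 to 6001 TPM for 10 oligodendrocyte genes, 714.7 to 924.1 and 248 to 306.9 for 10 microglial genes, and 305.7 to 390.4 and 1542 to 2104 for 10 genes listed for hippocampus. Single genes carried some of these sums: *Calb2* on the hippocampal list had 1070 to 1606 TPM in cerebellum against 28.8 to 51.3 TPM in cortex, while *Wfs1*, *Fibcd1* and *Lct* were higher in every cortex library. *S100b* on the astrocyte list had 1262 to 1942 TPM in cerebellum against 305.6 to 436.3 TPM in cortex, while *Slc1a2* was higher in cortex, at 578.2 to 737.7 against 109.2 to 188.9 TPM.

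A further pair of libraries stood apart from the others of their group. The cortex of wild-type mouse 4 had the fewest counts, the lowest sum of cortex neuron genes of its group (2532 against 3016 to 3128 TPM) and the highest of endothelial (588.3 against 426.5 to 488.2 TPM), blood (440.2 against 286.4 to 353.7 TPM) and microglial genes (924.1 against 768.6 to 780.4 TPM). The cerebellum of A391T mouse 1 had the lowest mean correlation with its group of all libraries (0.984 on log2 CPM, against 0.991 to 0.992 for the other A391T cerebellum libraries), the lowest sum of cerebellum neuron genes (5525 against 5854 to 6637 TPM) and the highest of the hippocampal list (2104 against 1762 to 1792 TPM). The part of either library's make-up in the members' levels was not tested.

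The sequences that follow are the stretches directly before the annotated start of 6 members that the results turn on: 4 ligands and receptors higher in cerebellum (*Fzd1*, *Fzd7*, *Wnt3* and *Wnt7a*) and 2 ligands higher in cortex (*Wnt2* and *Wnt9a*). They were read from the RefSeq promoter table (GRCm38.p6), each matched the NCBIM37 (mm9) genome of the count files at 1 place, and bases inside the annotated gene were left off. Capitals mark the 6-base core of the TCF/LEF motif, CTTTGA or CTTTGT, searched on both strands (so TCAAAG and ACAAAG on the printed strand).
*Fzd1*, chr5:4758217-4758466, minus strand: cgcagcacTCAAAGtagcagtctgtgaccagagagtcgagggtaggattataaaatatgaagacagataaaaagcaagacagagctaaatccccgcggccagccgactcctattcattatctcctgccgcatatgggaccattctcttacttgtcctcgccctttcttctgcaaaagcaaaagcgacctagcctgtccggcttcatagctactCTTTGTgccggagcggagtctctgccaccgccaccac
*Fzd7*, chr1:59538741-59538990, plus strand: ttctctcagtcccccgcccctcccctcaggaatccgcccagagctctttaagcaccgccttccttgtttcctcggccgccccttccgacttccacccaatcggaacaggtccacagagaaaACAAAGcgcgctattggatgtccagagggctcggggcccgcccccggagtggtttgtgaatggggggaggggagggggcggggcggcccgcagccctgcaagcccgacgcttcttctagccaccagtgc
*Wnt3*, chr11:103635239-103635463, plus strand: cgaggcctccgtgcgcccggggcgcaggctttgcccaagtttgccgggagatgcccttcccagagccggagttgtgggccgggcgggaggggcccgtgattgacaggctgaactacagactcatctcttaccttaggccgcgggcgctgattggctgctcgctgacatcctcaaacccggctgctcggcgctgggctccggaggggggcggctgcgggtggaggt
*Wnt7a*, chr6:91361358-91361597, minus strand: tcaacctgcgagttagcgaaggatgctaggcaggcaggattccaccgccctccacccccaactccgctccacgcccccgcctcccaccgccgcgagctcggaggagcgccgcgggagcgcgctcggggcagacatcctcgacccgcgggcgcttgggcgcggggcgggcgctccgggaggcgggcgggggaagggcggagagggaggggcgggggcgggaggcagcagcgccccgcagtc
*Wnt2*, chr6:17980586-17980695, minus strand: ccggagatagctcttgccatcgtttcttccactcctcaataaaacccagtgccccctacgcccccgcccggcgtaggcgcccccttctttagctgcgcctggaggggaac
*Wnt9a*, chr11:59120182-59120429, plus strand: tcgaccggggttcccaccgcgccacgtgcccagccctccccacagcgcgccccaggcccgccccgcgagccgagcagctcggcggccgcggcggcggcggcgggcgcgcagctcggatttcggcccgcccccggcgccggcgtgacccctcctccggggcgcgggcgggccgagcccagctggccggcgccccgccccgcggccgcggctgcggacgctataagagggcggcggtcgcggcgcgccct

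The *Fzd1* stretch held 2 cores, which begin 242 and 37 bases before the start, and the *Fzd7* stretch held 1, 129 bases before it. The other 4 stretches held none. Of all 250-base windows listed there, 9075 of 32851 held the core (27.6%), against 7 of 28 windows of the 25 members found there. Of the 10 windows of members higher in cerebellum 3 held it, and of the 6 windows of members higher in cortex 1 did. The share among members was thus close to that over the whole table. The median number of CG pairs was 22 in the members' windows and 6 over the table, and the *Wnt9a* stretch, of which 84.3% is G or C, held 48. *Wnt5a*, *Wnt7b*, *Wnt8a*, *Wnt10a*, *Fzd2*, *Fzd3*, *Fzd6*, *Fzd8*, *Sfrp1*, *Sfrp4*, *Dkk3* and *Dkk4* were not matched to the table.

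Many Wnt ligands differed strongly between cortex and cerebellum, in both directions, and the cerebellum had more Frizzled and far less Dickkopf RNA. In wild-type mice 19 of the 31 members with enough counts to be tested passed both criteria between regions. The criteria were a change of 2-fold or more and an adjusted p under 0.05 (quasi-likelihood test of edgeR, 4 libraries per region). The p was adjusted by Benjamini-Hochberg across all genes tested. Of all 16040 genes tested, 24.7% passed. Higher in cortex were 10 members, where 14.2% of all genes were, and higher in cerebellum were 9, where 10.5% were. Ligands accounted for 13 of the 19, with 7 higher in cortex and 6 in cerebellum, receptors for 3 and inhibitors for 3. The size of the log2 fold change had a median of 1.52 over the 31 members, also with *Wnt1* at the bound given below, and 0.46 over all genes tested. At the adjusted p alone, with no fold criterion, 27 members passed, 16 higher in cortex and 11 in cerebellum, where 67.8% of all genes passed, 33.1% and 34.7%. The filter on low counts was passed through both regions by 23 of the 31, of which 11 were called; the other 8 (*Wnt1*, *Wnt2*, *Wnt9b*, *Wnt10a*, *Wnt10b*, *Wnt11*, *Wnt16* and *Dkk2*) passed it mainly through the region where they were higher, so these counts describe the members and support nothing further.

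The A391T mice, which share no library with the wild-type mice, were compared in the same way. Of 16005 genes tested 24.7% passed both criteria, 14.9% toward cortex and 9.8% toward cerebellum, and 21 of the 31 members tested passed, 12 higher in cortex and 9 in cerebellum. All 19 members called in wild-type mice were called in A391T mice with the same sign, and *Fzd3* and *Sfrp1* were called in A391T mice alone. Of all genes called in wild-type mice 86.3% were called in A391T mice with the same sign, so the repeat of the members' calls is read no further. In A391T mice 25 of the 31 members passed the filter through both regions, of which 15 were called, and *Wnt1*, *Wnt2*, *Wnt9b*, *Wnt10b*, *Wnt11* and *Dkk2* passed it mainly through the region where they were higher. The 12 members not called in wild-type mice also had the same sign in both genotypes, as did 89.2% of all genes tested in both, although with scaling by library totals the small difference of *Fzd6* changed sign in both. That scaling moves the median log2 fold change of all genes by 0.12 in wild-type and 0.13 in A391T mice and changed no other sign. With only the 2 cerebellum libraries low in *Ttr* set against all 8 cortex libraries and genotype as a term, a comparison added after the data were seen, 20 members were called, 11 higher in cortex and 9 in cerebellum, where 25.2% of 16706 genes were called, 15.3% and 9.87%. Without the cortex of wild-type mouse 4, which stands apart, 19 members were called in wild-type mice, with *Fzd3* and *Sfrp1* in place of *Wnt11* and *Wnt16*. Without the cerebellum of A391T mouse 1, which stands apart as well, 21 were called in A391T mice, with *Fzd5* (log2 fold change -1.08, SE 0.252, adjusted p = 0.00219) in place of *Fzd3*.

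**Figure D1:**
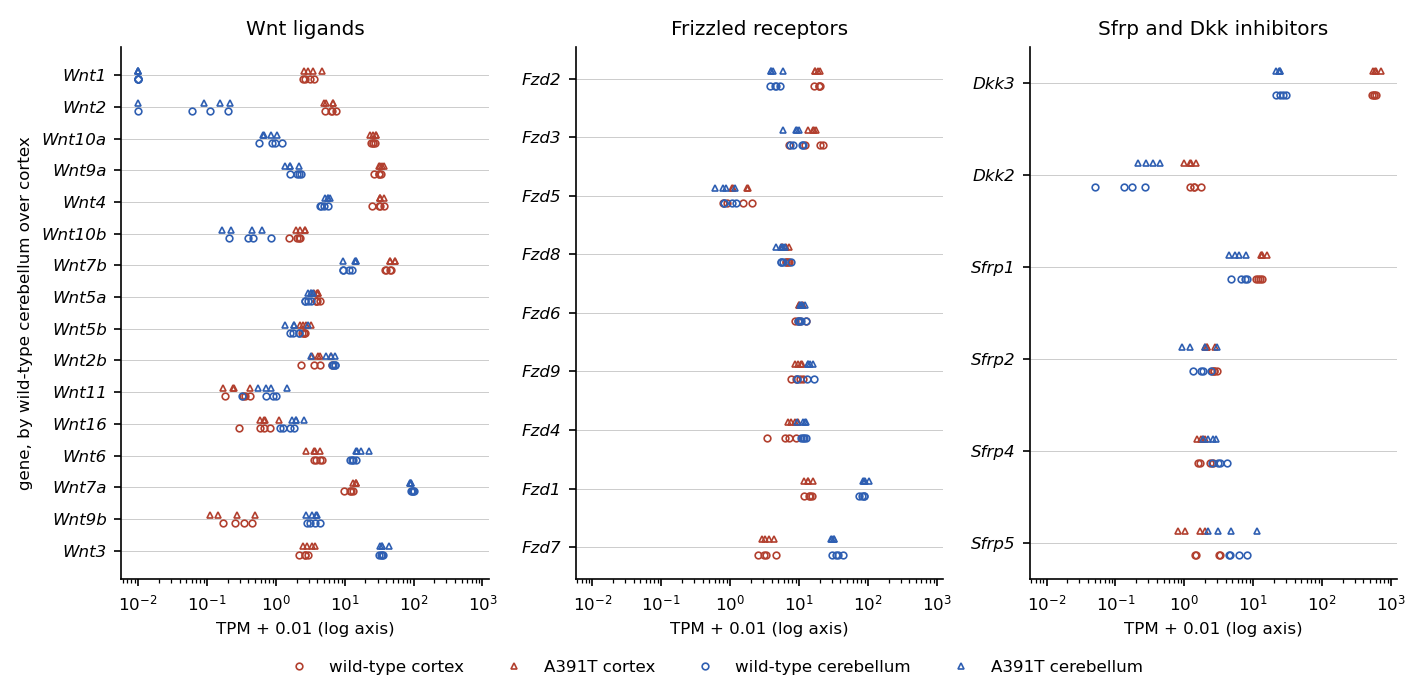
Level of each tested member in each of the 16 libraries, as TPM + 0.01 on a log axis, in panels for ligands, receptors and inhibitors and ordered by the wild-type difference between regions. Red points are cortex and blue points cerebellum libraries, circles wild-type and triangles A391T mice (n = 4 each). Red and blue separate widely for *Wnt1* to *Wnt7b*, for *Wnt6* to *Wnt3*, for *Fzd1*, *Fzd2* and *Fzd7* and for *Dkk3* and *Dkk2*, while circles and triangles of a colour lie side by side.

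**Figure D2:**
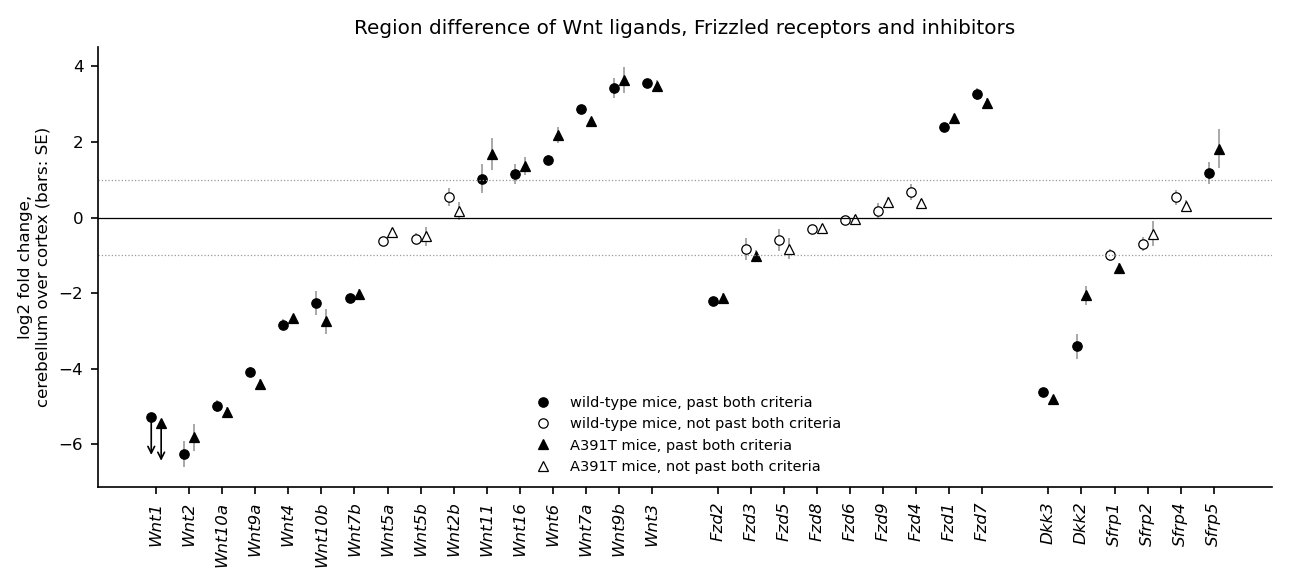
Log2 fold change of cerebellum over cortex (vertical axis, bars are the standard error derived from the test) for the 31 tested members, grouped as ligands, receptors and inhibitors. Filled symbols passed both criteria and dotted lines mark a 2-fold change. *Wnt1*, with 0 counts in cerebellum, is drawn at its bound with an arrow and no bar, and the other values run from -6.25 for *Wnt2* in wild-type mice to 3.63 for *Wnt9b* in A391T mice.

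The 7 ligands higher in cortex were *Wnt1*, *Wnt2*, *Wnt10a*, *Wnt9a*, *Wnt4*, *Wnt10b* and *Wnt7b*. *Wnt1*, the ligand best known for patterning the embryonic midbrain and hindbrain, was the only tested member without a count in any library of a region. Its level was 3.61, 3.17, 2.5 and 2.64 TPM in the 4 wild-type cortex libraries and 3.47, 2.92, 4.74 and 2.56 TPM in the 4 A391T cortex libraries. In all 8 cerebellum libraries it had 0 counts. Set against the limit of 3 counts over a group of 4 libraries that a count of 0 allows, *Wnt1* was at least 39.0-fold higher in cortex in wild-type and at least 43.4-fold higher in A391T mice. Its cortex counts were 22 to 45 per library, so the depth sets those bounds, which cover counting error only. The deposited length of *Wnt1* is 1454 bases where the annotation has 2392 exon bases, so its TPM would be lower on the annotated length.

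*Wnt2*, known from lung and placenta development, was also nearly absent from cerebellum. Its fold was 76.1 in wild-type and 56.2 in A391T mice, above the bounds of *Wnt1*, so the data do not order *Wnt1* and *Wnt2*. In wild-type mice it measured 6.54, 5.19, 7.5 and 6.33 TPM in cortex against 0.0994, 0.192, 0 and 0.0514 TPM in cerebellum, where it had 0 to 4 counts. In A391T mice the levels were 6.76, 4.99, 5.27 and 6.77 TPM in cortex against 0.081, 0.146, 0.205 and 0 TPM in cerebellum. No cerebellum library came near the lowest cortex library, with a log2 fold change of -6.25 (SE 0.346, adjusted p = 2.88e-08) in wild-type mice and of -5.81 (SE 0.351, adjusted p = 2.99e-07) in A391T mice. So few cerebellum counts leave the size of the fold uncertain: without the cerebellum of wild-type mouse 2 the wild-type value was -6.97, with only the mice named alike in both sources it was -7.93, and both cerebellum libraries low in *Ttr* had 0 counts.

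*Wnt10a*, a ligand of tooth and hair development, was among the 4 most abundant ligands of cortex. Its wild-type levels were 26.1, 24.2, 26.1 and 27.4 TPM in cortex against 0.559, 0.961, 0.859 and 1.22 TPM in cerebellum. The A391T levels were 23.6, 28.2, 28.6 and 25.7 TPM in cortex against 0.658, 1.03, 0.641 and 0.855 TPM in cerebellum. The groups lay far apart, with a log2 fold change of -4.99 (SE 0.157, adjusted p = 3.26e-10) in wild-type mice and of -5.15 (SE 0.146, adjusted p = 2.13e-09) in A391T mice.

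*Wnt9a*, a ligand known from joint formation, followed the same order. Wild-type cortex held 33.6, 31.98, 31.9 and 26.8 TPM and wild-type cerebellum 2.34, 2.14, 2.05 and 1.6 TPM. A391T cortex held 34.96, 36.7, 32.8 and 31.1 TPM and A391T cerebellum 2.16, 1.6, 1.37 and 1.59 TPM. All 8 cortex libraries were above all 8 cerebellum libraries, with a log2 fold change of -4.08 (SE 0.126, adjusted p = 2.76e-10) in wild-type mice and of -4.41 (SE 0.152, adjusted p = 6.43e-09) in A391T mice.

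*Wnt4*, needed for kidney and ovary development, stayed well above 0 in cerebellum. It measured 36.8, 32.1, 25.2 and 31.1 TPM in wild-type cortex against 5.08, 4.38, 5.66 and 4.49 TPM in wild-type cerebellum. Its A391T levels were 32.9, 32.2, 37.1 and 32.4 TPM in cortex against 6.04, 5.14, 5.77 and 5.76 TPM in cerebellum. The groups did not overlap, with a log2 fold change of -2.83 (SE 0.134, adjusted p = 7.78e-09) in wild-type mice and of -2.66 (SE 0.0956, adjusted p = 8.44e-09) in A391T mice.

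*Wnt7b* was the most abundant ligand of cortex. With *Wnt7a* it is known to drive vessel growth and the blood-brain barrier in the embryonic brain. Its levels were 46.7, 45.2, 40.01 and 38.4 TPM in wild-type cortex against 12.9, 11.4, 9.43 and 9.51 TPM in wild-type cerebellum. They were 44.8, 45.5, 53.4 and 52.9 TPM in A391T cortex against 9.34, 14.6, 14.3 and 14.4 TPM in A391T cerebellum. Cortex was higher throughout, with a log2 fold change of -2.13 (SE 0.118, adjusted p = 2.95e-08) in wild-type mice and of -2.02 (SE 0.123, adjusted p = 3.25e-07) in A391T mice; 0.861% of its exon bases are shared with a gene on the other strand, and counting ignored strand.

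*Wnt10b*, known from bone and fat, was scarce in both regions. Wild-type cortex had 2.24, 2.16, 1.56 and 2.02 TPM and wild-type cerebellum 0.451, 0.387, 0.198 and 0.828 TPM, from 29 to 53 and from 4 to 16 counts. A391T cortex had 2.2, 2.68, 2.6 and 1.95 TPM and A391T cerebellum 0.612, 0.441, 0.155 and 0.212 TPM. The groups did not overlap, with a log2 fold change of -2.25 (SE 0.311, adjusted p = 6.19e-05) in wild-type mice and of -2.74 (SE 0.33, adjusted p = 4.63e-05) in A391T mice. In the cerebellum libraries low in *Ttr*, each with 4 counts of *Wnt10b*, it was -3.52 (SE 0.318, adjusted p = 4.21e-07).

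The 6 ligands higher in cerebellum were *Wnt3*, *Wnt9b*, *Wnt7a*, *Wnt6*, *Wnt16* and *Wnt11*. *Wnt7a*, which granule cells of the cerebellum are known to release toward mossy fibres, was the most abundant ligand of any group. It measured 12.4, 11.97, 13.3 and 9.91 TPM in wild-type cortex against 92.7, 96.99, 102.6 and 95.7 TPM in wild-type cerebellum. The 4 A391T mice had 13.4, 14.6, 14.8 and 14.4 TPM in cortex against 92.1, 88.6, 87.3 and 90.5 TPM in cerebellum. Cerebellum was higher in every library, with a log2 fold change of 2.88 (SE 0.0828, adjusted p = 1.75e-10) in wild-type mice and of 2.55 (SE 0.0747, adjusted p = 2.58e-09) in A391T mice.

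*Wnt3*, a ligand of axis formation in the embryo, had the largest difference among the abundant ligands of cerebellum. Wild-type levels were 2.95, 2.64, 2.69 and 2.17 TPM in cortex against 33.9, 31.4, 35.1 and 35.9 TPM in cerebellum. A391T levels were 2.79, 3.71, 3.34 and 2.46 TPM in cortex against 43.6, 34.3, 33.1 and 34.5 TPM in cerebellum. No cortex library reached the lowest cerebellum library, with a log2 fold change of 3.55 (SE 0.0998, adjusted p = 1.51e-10) in wild-type mice and of 3.48 (SE 0.169, adjusted p = 6.35e-08) in A391T mice.

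*Wnt9b*, known from kidney tubule formation, differed as widely at a lower level. It measured 0.162, 0.249, 0.439 and 0.332 TPM in wild-type cortex, where it had 5 to 12 counts, and 4.41, 2.82, 3.11 and 3.64 TPM in wild-type cerebellum. The A391T levels were 0.136, 0.259, 0.102 and 0.495 TPM in cortex against 3.87, 3.91, 2.76 and 3.34 TPM in cerebellum. The regions did not overlap, with a log2 fold change of 3.43 (SE 0.258, adjusted p = 3.97e-07) in wild-type mice and of 3.63 (SE 0.347, adjusted p = 8.69e-06) in A391T mice. Without the cortex of mouse 4 the A391T value was 4.26.

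*Wnt6*, a further ligand of epithelial development, had cerebellum levels of 14.5, 12.6, 13.03 and 11.9 TPM in wild-type and 22.6, 17.4, 15.1 and 14.4 TPM in A391T mice. Its cortex levels were 4.38, 3.56, 4.63 and 3.79 TPM in wild-type and 3.63, 2.69, 3.71 and 4.33 TPM in A391T mice. The regions did not overlap, with a log2 fold change of 1.52 (SE 0.128, adjusted p = 1.08e-06) in wild-type mice and of 2.18 (SE 0.214, adjusted p = 1.05e-05) in A391T mice. In the cerebellum libraries low in *Ttr* the difference from cortex was also there, with a log2 fold change of 1.69 (SE 0.155, adjusted p = 4.98e-07). The summed meningeal genes, 1486 to 2033 TPM in cortex against 2042 to 3374 TPM in cerebellum, were nearly all *Ptgds*, at 1398 to 1927 against 1823 to 3156 TPM, and their part in *Wnt6* or any other member was not tested. Of the other genes on that list *Dcn* (13.7 to 19.97 against 41.6 to 52.6 TPM) and *Igf2* (18.96 to 30.3 against 43.4 to 62.1 TPM) were higher in every cerebellum library. So were *Col1a2*, *Lum*, *Slc6a13* and *Aldh1a2*, whereas *Col1a1*, *Col3a1*, *Foxc1*, *Foxd1* and *Slc22a6* overlapped between regions.

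*Wnt16*, known from bone, and *Wnt11*, a ligand of cell movement and ureter branching, had few counts. *Wnt16* had 0.587, 0.66, 0.803 and 0.282 TPM in wild-type cortex against 1.59, 1.13, 1.85 and 1.27 TPM in wild-type cerebellum. A391T mice had 0.68, 0.588, 1.1 and 0.656 TPM in cortex against 2.58, 1.96, 1.97 and 1.68 TPM in cerebellum. The groups did not overlap, with a log2 fold change of 1.16 (SE 0.267, adjusted p = 0.00255) in wild-type mice and of 1.36 (SE 0.241, adjusted p = 0.000702) in A391T mice. Without the cortex library of wild-type mouse 4, its lowest, the wild-type value was 0.95, short of 2-fold, and with only the mice named alike in both sources the wild-type call was lost (1.36, adjusted p = 0.0642).

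*Wnt11* measured 0.418, 0.325, 0.343 and 0.173 TPM in wild-type cortex against 0.996, 0.308, 0.904 and 0.7 TPM in wild-type cerebellum, from 4 to 25 counts. The wild-type regions overlapped, since the cerebellum of mouse 2 lay below 3 of the cortex libraries. In A391T mice the levels were 0.239, 0.418, 0.159 and 0.226 TPM in cortex against 1.43, 0.701, 0.534 and 0.843 TPM in cerebellum, without overlap. The difference passed narrowly in wild-type mice, with a log2 fold change of 1.03 (SE 0.381, adjusted p = 0.0327), and also in A391T mice, with a log2 fold change of 1.67 (SE 0.419, adjusted p = 0.00574). The wild-type call was lost with mouse as a block (0.99, adjusted p = 0.0349) and when any of 6 single libraries was left out, the cortex of mouse 2, 3 or 4 and the cerebellum of mouse 1, 3 or 4 (0.84 to 1.06). The A391T call was lost with only the mice named alike in both sources (1.65, adjusted p = 0.0621). Of its exon bases 10.0% are shared with a gene on the other strand.

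*Wnt7a* and *Wnt7b*, close paralogs, thus changed places between regions. Within a library the ratio of *Wnt7a* to *Wnt7b* TPM was 0.258 to 0.332 in wild-type and 0.272 to 0.322 in A391T cortex. It was 7.196 to 10.9 in wild-type and 6.08 to 9.87 in A391T cerebellum. Summed over all 19 ligands, wild-type cortex had 173.2 ± 11.5 TPM against 180.9 ± 4.32 TPM in wild-type cerebellum (SD, n = 4 each). In A391T mice it was 188.6 ± 7.31 and 182.7 ± 8.57 TPM (SD, n = 4 each). These sums show no direction between regions, since rescaling by TMM factors turned the wild-type order, to 181.6 TPM in cortex against 171.2 TPM in cerebellum. *Wnt7b*, *Wnt4*, *Wnt9a* and *Wnt10a* held 24.6%, 18.1%, 17.9% and 15.1% of the wild-type cortex sum, whereas *Wnt7a* and *Wnt3* held 53.6% and 18.8% of the wild-type cerebellum sum.

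Several ligand genes lie side by side in the genome, and neighbours did not always share a region. Within 100 kb of each other and with no coding gene between them (NCBIM37 annotation) were 4 pairs of ligands. *Wnt1* (chr15:98620288-98624268, plus strand) and *Wnt10b* (chr15:98602184-98608581, minus strand), 11706 bases apart, were both higher in cortex. *Wnt3* (chr11:103635464-103679271, plus strand) and *Wnt9b* (chr11:103588678-103611135, minus strand), 24328 bases apart, were both higher in cerebellum. *Wnt6* (chr1:74818466-74831893, plus strand) and *Wnt10a* (chr1:74838090-74850753, plus strand), which follow each other on 1 strand with 6196 bases between them, differed in opposite directions. In the fourth pair *Wnt9a* (chr11:59120430-59147054, plus strand) was higher in cortex, while *Wnt3a* (chr11:59061535-59104254, minus strand), 16175 bases away, had 0 to 2 counts per library and was not tested.

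**Figure D3:**
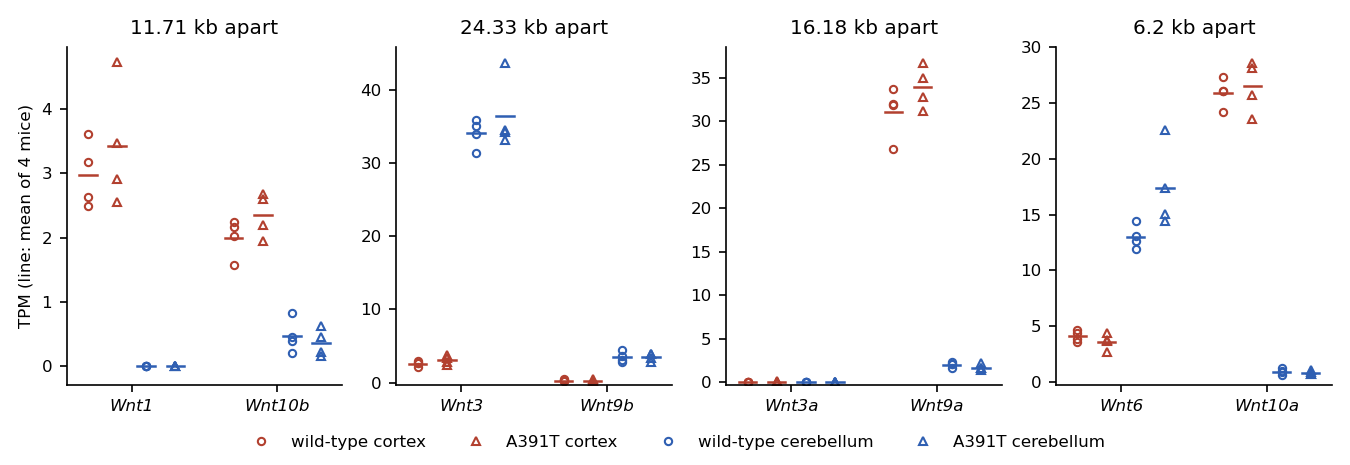
TPM of the genes of 4 neighbouring ligand pairs in each library (points; lines are the mean of 4 mice; red cortex, blue cerebellum, circles wild-type, triangles A391T), with the distance between the genes in kb above each panel and a separate linear axis per panel. Both genes of the pair 11.71 kb apart sit higher in cortex, both of the pair 24.33 kb apart higher in cerebellum, and *Wnt6* and *Wnt10a*, 6.2 kb apart, in opposite regions.

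The other ligands were *Wnt5a* and *Wnt5b*, which are known to signal without β-catenin, and *Wnt2b*, and none of them passed both criteria in either genotype. *Wnt5a* measured 4.0 ± 0.257 TPM in cortex against 2.88 ± 0.304 TPM in cerebellum of wild-type mice (SD, n = 4 each), with a log2 fold change of -0.62 (SE 0.0985, adjusted p = 0.000175), under a 2-fold change. *Wnt5b* measured 2.55 ± 0.106 and 1.92 ± 0.303 TPM (SD, n = 4 each), with a log2 fold change of -0.56 (SE 0.152, adjusted p = 0.00721). *Wnt2b* had 4.2 ± 1.78 TPM in cortex against 6.91 ± 0.307 TPM in cerebellum (SD, n = 4 each), with a log2 fold change of 0.55 (SE 0.236, adjusted p = 0.0577). In A391T mice the log2 fold changes of *Wnt5a*, *Wnt5b* and *Wnt2b* were -0.39, -0.50 and 0.17 (adjusted p = 0.00611, 0.108 and 0.561 in the same test). Of these only *Wnt5a* passed the adjusted p there. *Wnt8a* had 0 to 3 counts per library and *Wnt8b* 0 to 16, and like *Wnt3a* they had too few counts for the test, so a difference in them was not detectable at this depth.

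Among the receptors *Fzd1* and *Fzd7* were higher in cerebellum and *Fzd2* was higher in cortex, in both genotypes. *Fzd1*, the most abundant Frizzled of cerebellum, measured 15.3, 14.7, 13.9 and 12.04 TPM in wild-type cortex against 86.7, 86.8, 81.9 and 73.9 TPM in wild-type cerebellum. Among A391T mice it was 11.8, 13.7, 16.3 and 13.8 TPM in cortex against 103.7, 88.1, 84.2 and 90.1 TPM in cerebellum. The regions were far apart in every mouse, with a log2 fold change of 2.41 (SE 0.0916, adjusted p = 1.44e-09) in wild-type mice and of 2.62 (SE 0.125, adjusted p = 5.51e-08) in A391T mice.

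*Fzd7*, a receptor known from embryonic and stem cells, had the largest difference among receptors. Wild-type levels were 3.3, 3.1, 4.6 and 2.52 TPM in cortex against 34.04, 30.7, 43.03 and 37.1 TPM in cerebellum. A391T levels were 3.2, 2.88, 4.32 and 3.64 TPM in cortex against 29.04, 31.9, 30.4 and 32.5 TPM in cerebellum. All cerebellum libraries lay above all cortex libraries, with a log2 fold change of 3.27 (SE 0.155, adjusted p = 7.99e-09) in wild-type mice and of 3.04 (SE 0.115, adjusted p = 1.12e-08) in A391T mice. The deposited gene length is 8930 bases where the annotation has 4801 exon bases, so its TPM would be higher on the annotated length; the fold change does not use the length.

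*Fzd2*, which lies in the same receptor subfamily as *Fzd1* and *Fzd7*, went the other way. It measured 19.7, 20.04, 19.6 and 16.5 TPM in wild-type cortex against 3.84, 4.53, 5.33 and 4.58 TPM in wild-type cerebellum. The A391T mice had 17.04, 17.1, 18.7 and 20.4 TPM in cortex against 4.19, 3.96, 5.88 and 3.93 TPM in cerebellum. Cortex was higher throughout, with a log2 fold change of -2.21 (SE 0.108, adjusted p = 1.08e-08) in wild-type mice and of -2.13 (SE 0.14, adjusted p = 5.43e-07) in A391T mice. The ratio of *Fzd1* to *Fzd2* TPM within a library was 0.675 to 0.868 over the 8 cortex libraries and 14.3 to 24.7 over the 8 cerebellum libraries.

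*Fzd3*, known for guiding axons, passed both criteria in A391T mice alone. It measured 16.6, 17.98, 16.00 and 13.6 TPM in A391T cortex against 5.87, 9.25, 9.17 and 10.2 TPM in A391T cerebellum, with a log2 fold change of -1.01 (SE 0.141, adjusted p = 0.000136). The wild-type levels were 12.3, 22.4, 20.1 and 7.12 TPM in cortex against 8.22, 7.43, 11.2 and 11.6 TPM in cerebellum, with a log2 fold change of -0.84 (SE 0.292, adjusted p = 0.0243). The wild-type regions overlapped because the cortex of mouse 4, a library that stands apart in its marker sums, lay below every cerebellum library. Without that library the wild-type value was -1.08 (adjusted p = 0.000508), past both criteria. The A391T call in turn fell short of 2-fold without the cortex of mouse 1 (-0.9975), the cortex of mouse 2 (-0.96) or the cerebellum of mouse 1 (-0.88), with library totals (-0.88) and with all 16 libraries in one model (-0.9946).

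The remaining receptors differed less. *Fzd4*, the receptor of norrin, measured 6.54 ± 2.37 TPM in cortex against 11.6 ± 0.78 TPM in cerebellum of wild-type mice (SD, n = 4 each), with a log2 fold change of 0.67 (SE 0.217, adjusted p = 0.0172). *Fzd8* had 6.77 ± 0.373 and 6.06 ± 1.01 TPM (SD, n = 4 each), with a log2 fold change of -0.31 (SE 0.121, adjusted p = 0.041). *Fzd9* had 9.63 ± 1.64 and 12.1 ± 3.48 TPM and *Fzd5* 1.33 ± 0.613 and 0.972 ± 0.205 TPM (SD, n = 4 each). *Fzd6*, *Fzd9* and *Fzd5* did not pass the adjusted p in wild-type mice, with log2 fold changes of -0.074, 0.18 and -0.60. In A391T mice *Fzd4*, *Fzd9* and *Fzd5* passed the adjusted p without a 2-fold change (0.37, 0.42 and -0.83), while *Fzd8* (-0.29) and *Fzd6* (-0.04) did not. *Fzd6* was at 10.3 ± 1.63 TPM in wild-type cortex against 10.8 ± 1.25 TPM in wild-type cerebellum (SD, n = 4 each). *Fzd4* passed both criteria in wild-type mice when only the mice named alike in both sources were used (1.03, SE 0.275, adjusted p = 0.0275). The coding *Fzd10* entry had 3 to 10 counts per library and its pseudogene entry 0 in each, and neither was tested.

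The receptor entries together had 86.69 ± 12.02 TPM in cortex against 174.6 ± 5.49 TPM in cerebellum of wild-type mice (SD, n = 4 each). In A391T mice it was 88.6 ± 5.33 and 179.2 ± 4.75 TPM (SD, n = 4 each). The highest cortex library had 95.7 TPM and the lowest cerebellum library 168 TPM, so the regions did not overlap. In wild-type cortex the sum was spread over *Fzd2* (22.04%), *Fzd3* (17.3%) and *Fzd1* (16.2%), of which *Fzd3* varied from 7.12 to 22.4 TPM between mice. In wild-type cerebellum *Fzd1* and *Fzd7* held 47.1% and 20.7% of it. These shares depend on the gene lengths: with member TPM put on the annotated exon bases, which was added after the data were seen, *Fzd1* held 39.8% and *Fzd7* 32.5%, and the wild-type sums were 91.7 TPM in cortex against 207.1 TPM in cerebellum.

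**Figure D4:**
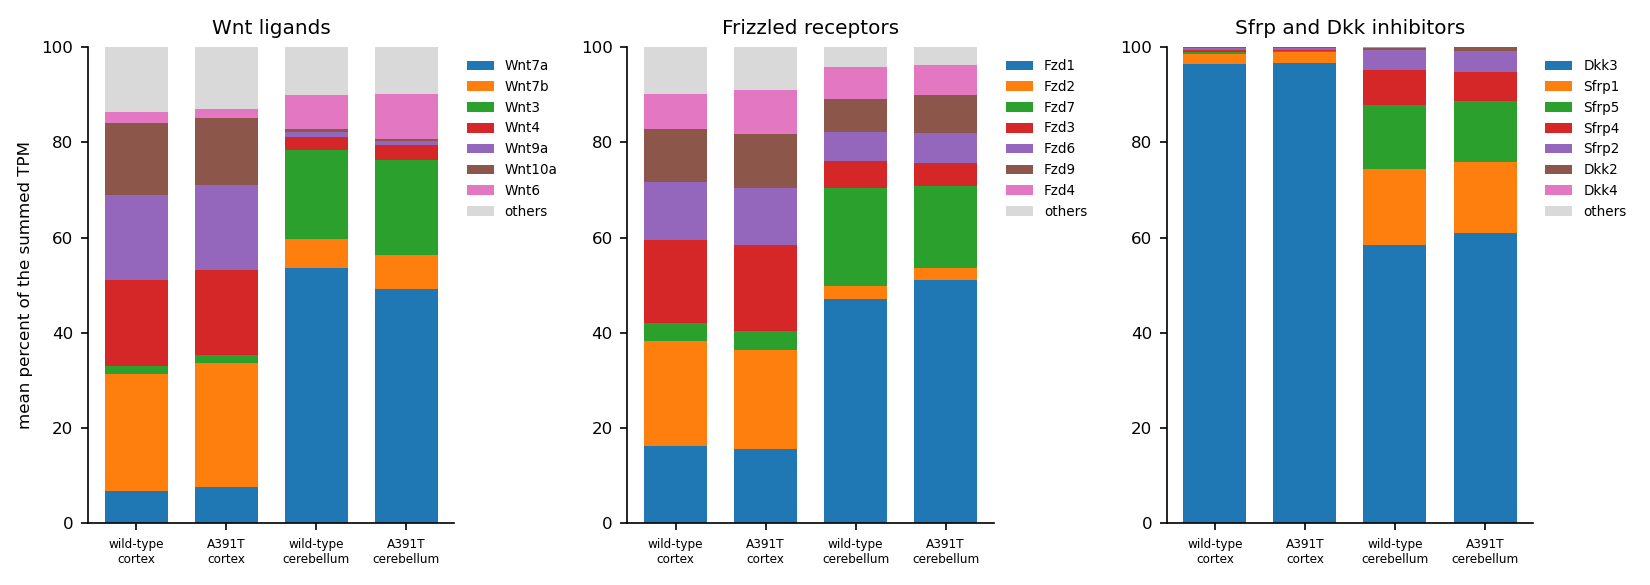
Make-up of the summed TPM of ligands, receptors and inhibitors in each group, as the mean percent over 4 mice (vertical axis, 0 to 100; colours are genes, grey the genes outside the 7 largest). Bars of the same region look alike in both genotypes: *Wnt7a* fills 53.6% of the ligand bar in wild-type cerebellum and 6.87% in wild-type cortex, and *Dkk3* fills 96.5% of the inhibitor bar in wild-type cortex.

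Of the inhibitors, *Dkk3* and *Dkk2* were higher in cortex and *Sfrp5* in cerebellum. *Dkk3*, the most divergent Dickkopf, was by far the most abundant member in cortex. Its levels were 568.9, 607.2, 566.4 and 535.5 TPM in wild-type cortex against 30.1, 21.3, 24.2 and 27.1 TPM in wild-type cerebellum. They were 579.7, 615.3, 707.5 and 557.4 TPM in A391T cortex against 21.5, 24.4, 23.7 and 24.5 TPM in A391T cerebellum. The lowest cortex library exceeded the highest cerebellum library many times over, with a log2 fold change of -4.62 (SE 0.106, adjusted p = 3.44e-11) in wild-type mice and of -4.81 (SE 0.0867, adjusted p = 1.64e-10) in A391T mice. All 8 inhibitors together measured 590.3 ± 30.5 TPM in wild-type cortex against 43.81 ± 5.0 TPM in wild-type cerebellum (SD, n = 4 each). In A391T mice they measured 635.6 ± 66.8 and 39.4 ± 6.91 TPM (SD, n = 4 each). *Dkk3* was 96.5% of the wild-type cortex sum and 58.5% of the wild-type cerebellum sum. The gap between these sums is thus mainly that of *Dkk3* and does not describe the other inhibitors.

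*Dkk2*, an inhibitor that binds *Lrp6*, had 1 to 39 counts per library. It measured 1.39, 1.22, 1.39 and 1.76 TPM in wild-type cortex against 0.124, 0.0401, 0.164 and 0.257 TPM in wild-type cerebellum. Its levels in A391T mice were 1.2, 1.47, 1.25 and 0.975 TPM in cortex against 0.27, 0.203, 0.342 and 0.439 TPM in cerebellum. The regions did not overlap, with a log2 fold change of -3.41 (SE 0.332, adjusted p = 3.57e-06) in wild-type mice and of -2.06 (SE 0.247, adjusted p = 4.63e-05) in A391T mice. The size depended on which mice were in the group: with the names of the RPKM table it was -2.28 in wild-type and -3.06 in A391T mice, and in the cerebellum libraries low in *Ttr* it was -2.28.

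*Sfrp5*, known from gut and fat, varied widely between mice. It measured 1.46, 3.29, 3.22 and 1.41 TPM in wild-type cortex against 6.29, 4.52, 8.2 and 4.67 TPM in wild-type cerebellum. The levels of A391T mice were 1.69, 1.00, 0.807 and 1.96 TPM in cortex against 3.09, 4.81, 11.2 and 2.22 TPM in cerebellum. Cerebellum lay above cortex in every library of a genotype, with a log2 fold change of 1.17 (SE 0.297, adjusted p = 0.0046) in wild-type mice and of 1.82 (SE 0.517, adjusted p = 0.0112) in A391T mice. The wild-type value was 0.97 without the cerebellum library of mouse 3, its highest, and in the cerebellum libraries low in *Ttr*, of which that is one, the log2 fold change was 1.23 (SE 0.342, adjusted p = 0.0065). With only the mice named alike in both sources the wild-type call was lost (1.31, adjusted p = 0.0611). The A391T value was 1.197 without the cerebellum of mouse 3, also its highest, and 1.18 with the names of the RPKM table.

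*Sfrp1*, which binds Wnt proteins directly, was higher in cortex at close to 2-fold. It measured 13.6, 13.3, 15.8 and 13.2 TPM in A391T cortex against 4.45, 6.3, 7.77 and 5.41 TPM in A391T cerebellum, with a log2 fold change of -1.33 (SE 0.141, adjusted p = 1.81e-05). Wild-type levels were 12.7, 13.3, 11.8 and 11.1 TPM in cortex against 8.27, 7.69, 4.81 and 6.66 TPM in cerebellum, with a log2 fold change of -0.98 (SE 0.154, adjusted p = 0.000166). No cerebellum library reached the lowest cortex library of its genotype. The wild-type difference missed 2-fold narrowly and passed it with DESeq2 or RLE factors (-1.004 in both), with the names of the RPKM table (-1.23), with only the mice named alike in both sources (-1.17), with mouse as a block (-1.001, adjusted p = 0.000228) and when the cortex of mouse 3 or 4 or the cerebellum of mouse 1 or 2 was left out (-1.01 to -1.08). In the cerebellum libraries low in *Ttr* it was -1.51 (SE 0.107, adjusted p = 3.61e-08).

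*Sfrp2* and *Sfrp4* did not reach a 2-fold change. *Sfrp2* had 2.72 ± 0.167 TPM in cortex against 1.86 ± 0.465 TPM in cerebellum of wild-type mice (SD, n = 4 each), with a log2 fold change of -0.70 (SE 0.183, adjusted p = 0.00548), and 16.1% of its exon bases are shared with a gene on the other strand. *Sfrp4* had 2.04 ± 0.488 and 3.26 ± 0.71 TPM (SD, n = 4 each), with a log2 fold change of 0.54 (SE 0.199, adjusted p = 0.0328). In A391T mice neither passed the adjusted p (-0.43 and 0.30). *Dkk1* and *Dkk4* had 0 to 2 counts per library and were not tested.

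Other genes of the pathway were read from lists written from general knowledge, 79 genes in the files. Of the 77 tested in wild-type mice 24 passed both criteria, 14 higher in cortex and 10 in cerebellum, and of the 78 tested in A391T mice 27 passed, 16 and 11. Over all genes tested 24.7% passed in each genotype, 14.2% toward cortex and 10.5% toward cerebellum in wild-type mice, so most genes of any kind were not called, and nothing is read from the counts of these small lists. Of 25 genes of β-catenin signalling 3 were called in wild-type mice: the co-repressor gene *Tle2* was higher in cerebellum (2.08, SE 0.0919), and *Tle4* (-1.13, SE 0.0681) and the factor gene *Tcf7* (-1.01, SE 0.13) were higher in cortex. The median log2 fold change of these 25 was 0.067, beside 0.018 for all genes.

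Of 12 secreted regulators with names other than Sfrp and Dkk, 6 were called in wild-type mice, where 24.7% of all genes were. Higher in cortex were *Dkkl1*, a Dickkopf-like gene (-6.68, SE 0.227), *Igfbp4* (-2.74, SE 0.066) and *Frzb*, a frizzled-related inhibitor under another name (-2.73, SE 0.124). Higher in cerebellum were the Lrp inhibitor gene *Sost* (4.24, SE 0.447), *Sostdc1* (3.96, SE 0.92) and the Wnt-binding *Wif1* (2.01, SE 0.228). *Sostdc1* is also on the choroid plexus list and ran from 0 to 31.8 TPM over the cerebellum libraries; its part in that tissue was not tested.

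R-spondins, secreted proteins that amplify Wnt signals through Lgr receptors, and those receptors had calls in both directions. *Rspo2* (-4.64, SE 0.125) and *Rspo1* (-4.81, SE 0.218) were higher in cortex, and *Lgr5* (2.38, SE 0.132) and *Lgr6* (1.64, SE 0.163) in cerebellum, 4 calls among 8 genes tested in wild-type mice, where 24.7% of all genes were called. Of 13 genes known as direct β-catenin targets, a list that shares members with the others, 5 were called. *Sp5* (3.35, SE 0.182) and *Lgr5* were higher in cerebellum and *Myc* (-1.32, SE 0.151), *Nkd2* (-1.05, SE 0.155) and *Tcf7* in cortex, and the median of the list was -0.33, beside 0.018 for all genes.

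Of 12 planar polarity genes 6 were called in wild-type mice, where 24.7% of all genes were called and 14.2% toward cortex. Higher in cortex were 5, led by *Prickle2* (-2.91, SE 0.142), *Prickle1* (-2.56, SE 0.102) and *Celsr1* (-1.98, SE 0.186), and higher in cerebellum was *Vangl1* (1.201, SE 0.167). *Porcn*, the enzyme that attaches the lipid to Wnt proteins, was the 1 called of 7 genes of ligand secretion (1.21, SE 0.0589), higher in cerebellum. Of 8 co-receptors and other receptors tested, 1 was called, *Ror1* (3.67, SE 0.209), also higher in cerebellum. The Wnt7 co-receptor genes *Gpr124* and *Reck* and the Lrp genes were on that list and were not called in wild-type mice.

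Between A391T and wild-type mice no member passed the test in either region. In cortex 0.00632% of the 15815 genes tested passed both criteria, 1 gene that is no member, and 0 of the 29 members tested. In cerebellum 0.0% of 15668 genes passed, and 0 of 27 members. DESeq2 called 2 genes in cortex and 9 in cerebellum, again no member. With the mice named as in the RPKM table, or with only the mice named alike in both sources, 0 members were called in either region as well, by edgeR. The members' log2 fold changes ran from -0.78 to 0.34 in cortex and from -0.41 to 0.56 in cerebellum, with standard errors of 0.071 to 0.35 and 0.068 to 0.44. At an unadjusted p under 0.05 were 2 members in cortex, *Wnt7a* (0.25, SE 0.090, adjusted p = 0.9985) and *Sfrp5* (-0.78, SE 0.354, adjusted p = 0.9997). In cerebellum 3 were, *Wnt6* (0.49, SE 0.176), *Wnt16* (0.56, SE 0.217) and *Sfrp4* (-0.41, SE 0.175), each with an adjusted p of 0.5322. Over all genes 748 were at that unadjusted p in cortex and 1340 in cerebellum.

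**Figure D5:**
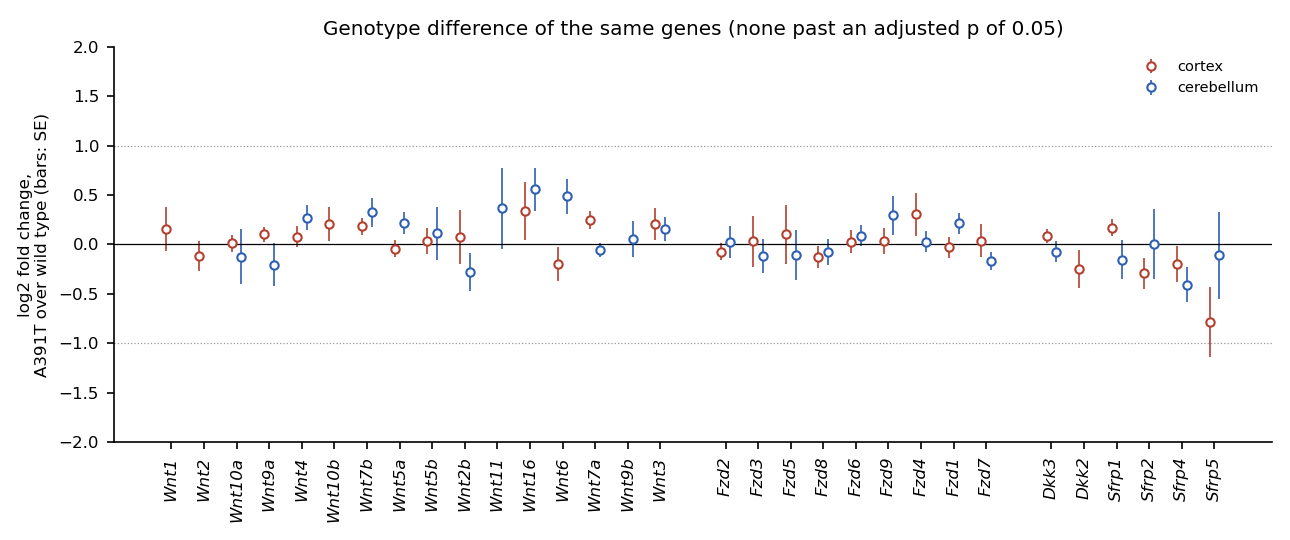
Log2 fold change of A391T over wild-type mice in cortex (red) and cerebellum (blue) for the members tested there. Bars are the standard error derived from the test, and dotted lines mark a 2-fold change. Genes are in the order of the plot of region differences. All points lie between -0.78 and 0.56, and none passed an adjusted p of 0.05.

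Whether the difference between regions depended on genotype was tested over all 16 libraries. None of 16589 genes passed an adjusted p of 0.05 (0.0%; edgeR, 805 at an unadjusted p under 0.05; DESeq2 called 1 gene, no member). Of the 31 members 3 were at an unadjusted p under 0.05, *Dkk2* (1.37, SE 0.457), *Wnt7a* (-0.31, SE 0.111) and *Wnt6* (0.68, SE 0.258), each with an adjusted p of 0.7691. These are differences of log2 fold changes, A391T minus wild-type. That of *Dkk2* depended on the mouse names. With the names of the RPKM table its log2 fold change was -2.28 in wild-type and -3.06 in A391T mice, a difference of the opposite sign. The calls of *Fzd3* and *Sfrp1* in A391T mice alone are therefore not shown to differ from wild-type mice.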

How the data were processed

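Libraries of polyA-selected RNA were made with a directional kit, mapped with STAR to mm9 and counted per Ensembl gene with HTSeq by the authors, per their methods and processing notes. The deposited counts are whole numbers per gene and library, without normalization, and were counted without regard to strand. The deposited RPKM table was made by the authors from the same libraries, and its gene lengths and gene names were used here, not its RPKM values. TPM was computed from counts and those lengths.

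Counts were tested with edgeR 4.0.16 (R 4.3.3, limma 3.58.1): filterByExpr, TMM and the quasi-likelihood test, with p adjusted by Benjamini-Hochberg across every gene that entered the fit. Calls needed an adjusted p under 0.05 and a change of 2-fold or more, and in the interaction at the adjusted p alone. On simulated counts the test was checked beforehand. Log2 fold changes are cerebellum over cortex and A391T over wild-type. The SE beside an edgeR log2 fold change is its size divided by the square root of the test's F statistic. It is derived from the test and is no separate estimate of error. For members near 0 counts in a region, such as *Wnt2* and *Dkk2*, it should not be read as the full error. Per the study's reporting summary the mice were littermates, so p-values measure the spread between related animals.

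Every member is named or counted: those called in a region comparison with each library's value, the other tested members with the mean and SD of wild-type mice, those not tested with their counts, and from each pathway list up to 3 called genes per direction. Members, lists and rules were chosen with earlier results of these data known. Mouse numbers pair the regions of 1 animal. Deviations of both regions of a mouse had correlations from -0.177 to 0.229 (median 0.013) in wild-type and from -0.162 to 0.105 (median -0.088) in A391T mice. For regions of different mice the medians were 0.013 in wild-type and 0.033 in A391T mice. The pairing thus rests on the mouse numbers and is not seen in the counts. Alternatives were DESeq2 1.42.0, scaling by RLE or by library totals, other filters on low counts, one model of all libraries, a test against 2-fold, the names in the RPKM table, leaving out single libraries, mouse as a replicate block and, added after the data were seen, annotated exon lengths and the cerebellum libraries low in *Ttr*.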

Additional observations from a re-analysis of the deposited data

Results flagged for a closer look

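In 6 of 124 groups of 4 libraries 1 library lay far from the other 3 in the level of a member, by a ratio of gap to range above Dixon's 95% critical value, which chance alone gives in about 1 of 20 groups. *Fzd2* was low in the wild-type cortex of mouse 4, at 16.54 TPM against 19.65 to 20.04, in a library that was also low in cortex neuron genes, and high in the A391T cerebellum of mouse 3, at 5.878 TPM against 3.93 to 4.194. The A391T cortex of mouse 3 was high in *Sfrp1*, at 15.84 TPM against 13.18 to 13.55, and in *Wnt4*, at 37.13 TPM against 32.17 to 32.91. In that library the striatal genes summed to 440 TPM, against at least 1065 TPM in the other cortex libraries, and the part of this in both levels was not tested. The A391T cerebellum of mouse 1 was high in *Wnt3*, at 43.64 TPM against 33.07 to 34.55, and low in *Wnt7b*, at 9.336 TPM against 14.3 to 14.57. That library also had the lowest mean correlation with its group, 0.984, and without it the log2 fold changes in A391T mice were 3.34 for *Wnt3* and -1.90 for *Wnt7b*. Each of these levels stayed on its region's side of the difference between cortex and cerebellum.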

How the results depend on the processing

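No called log2 fold change of a member changed direction under any alternative run. Without the fold criterion 16 members rather than 10 were called higher in cortex in wild-type mice, where 33.1% of all genes rather than 14.2% were. Rescaling TPM by TMM factors lowered the wild-type cerebellum sums to 171.2 TPM for ligands, below cortex, and 165.2 TPM for receptors. Annotated exon lengths raised the cerebellum sums, to 190.2 TPM for ligands and 207.1 TPM for receptors in wild-type and 207 TPM for receptors in A391T mice. With mouse as a replicate block, which pairs the regions of an animal, 19 members were called in wild-type mice, 11 higher in cortex and 8 in cerebellum, and 21 in A391T mice; apart from *Wnt11* and *Sfrp1* in wild-type mice it changed no call. Leaving out single libraries gave 17 to 20 calls in wild-type mice (17 without the cerebellum of mouse 3) and 20 to 21 in A391T mice, and 0 for genotype and interaction. With mice named as in the RPKM file, 20 and 21 members were called, and with only the mice named alike in both sources 19 and 20. A test against a 2-fold change left 16 and 17, without *Sfrp5*, *Wnt11* and *Wnt16* in either genotype and without *Fzd3* in A391T mice. The cause of these moves was not tested. Depth limits the ligands and inhibitors with few counts, and 7 entries could not be tested at all.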
